A study of Mus musculus with 20 samples.

Results

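The genes described here are 10 germ cell and meiosis genes, Tex14, Ddx4, Dazl, Figla, Nobox, Sohlh1, Lhx8, Sycp3, Stag3 and Mos, out of 54838 genes in the count tables. They were taken from a written list by symbol, each matched to its Ensembl identifier, and no threshold on a measured value entered the rule, although the list was drawn up with results of these data known. Tex14 was set against the other members throughout. The counts come from 3' mRNA-Seq of whole mouse ovaries, 1 library per animal, in 4 groups of 5 mice aged 77 days. The groups were the outbred, unselected control line (ctrl) and the line FL1, each in estrus and each in diestrus. FL1 descends from the same outbred base as ctrl and was bred over many generations for high fertility, so a difference between the lines may come from selection or from drift in a closed line, which cannot be told apart. No transgene or drug was used in any group. Fat, oviduct and tunica were removed from the ovaries, and in estrus the ovulated cumulus-oocyte complexes, which lie in the oviduct, were not part of the ovary sample.

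Germ cells of the ovary enter meiosis before birth and then stay arrested as oocytes inside follicles until ovulation. In the adult ovary, oocytes are a small share of all cells, and granulosa, theca and luteal cells make up most of the RNA. The members fall into roles along this path. Tex14 codes for a component of the stable intercellular bridges that join dividing germ cells. Ddx4, the mouse Vasa helicase, and Dazl, an RNA-binding regulator of translation, mark germ cell identity. Figla, Nobox, Sohlh1 and Lhx8 are transcription factors of the oocyte. Sycp3 and Stag3 are parts of the meiotic chromosome axis, a synaptonemal complex protein and a cohesin subunit. Mos codes for the kinase that drives the MAPK cascade in the maturing oocyte.

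The libraries held 5991223 to 10352718 counts, and levels are given as CPM, counts scaled to library size with TMM factors over the 20 libraries. A count of 3, used as the detection floor, corresponded to 0.290 to 0.501 CPM. The ovary was recognisable by its markers: all 12 oocyte markers passed the filter on low counts, none of the 50 genes in the 8 marker lists was at 0 in all libraries, and summed oviduct and fat markers stayed at 9.12 to 19.6 CPM and 17.2 to 45.0 CPM. Of the theca list, 2 of 4 genes passed the filter. In whole tissue, fewer cells of a type and less RNA per cell cannot be told apart.

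Tex14 had the most counts of the members, 3942 over the 20 libraries, followed by Mos with 1702, Dazl with 1556 and Nobox with 985. Lhx8 had 508 counts, Sohlh1 254, Figla 249, Ddx4 214 and Sycp3 151. Stag3 had 15 counts in all and never more than 3 in a library, so no fold change is given for it. This kit reads transcript ends, and the number of reads does not depend on transcript length, so the counts are not divided by it. No member shared the end of its transcripts with another gene.

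Tex14 (ENSMUSG00000010342) lies on the forward strand at chr11:87405065-87555823 (GRCm38). The other members lie on other chromosomes: Ddx4 (ENSMUSG00000021758) at chr13:112598333-112652475, Dazl (ENSMUSG00000010592) at chr17:50279395-50293636, Sohlh1 (ENSMUSG00000059625) at chr2:25842995-25847248 and Lhx8 (ENSMUSG00000096225) at chr3:154306294-154330659. Figla (ENSMUSG00000030001) at chr6:86016171-86020996 and Nobox (ENSMUSG00000029736) at chr6:43303674-43309554 share a chromosome. Mos (ENSMUSG00000078365), a gene of 1 exon, lies at chr4:3870657-3872105, Stag3 (ENSMUSG00000036928) at chr5:138280240-138312393 and Sycp3 (ENSMUSG00000020059) at chr10:88459569-88473236. Sycp3 overlaps exons of Chpt1 on the opposite strand over 660 bases, and the strand setting of the counting is not given in the sources used here, so the Sycp3 counts are uncertain. Small RNA genes and pseudogenes lie within introns of Tex14, with no overlap of exons.

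Tex14 was low in ctrl in estrus and 4.11-fold higher in FL1 in estrus. In ctrl in estrus, Tex14 stood at 8.98, 10.4, 6.40, 7.08 and 3.79 CPM in replicates 1 to 5. The corresponding values in FL1 in estrus were 58.2, 31.5, 11.6, 24.1 and 26.4 CPM. The lowest FL1 library was above the highest ctrl library, so the groups did not overlap, although FL1 replicate 3 came close to the ctrl range and FL1 replicate 1 stood well above the others. The means were 7.34 ± 2.54 CPM in ctrl and 30.4 ± 17.2 CPM in FL1 (SD, n = 5), a log2FC of 2.04 (SE 0.36, edgeR adjusted p = 0.00851). The exact permutation test on log2 CPM gave p = 0.00794, the smallest two-sided p that 5 against 5 libraries allow, and 0.0159 after adjustment over 4 comparisons. The call held in each of the 10 fits that left out a library, with a log2FC of 1.66 to 2.25. The study listed Tex14 as a changed gene in estrus from these same libraries, so this test is not independent evidence of its direction.

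In diestrus, Tex14 was at 44.6, 23.4, 30.6, 44.6 and 35.6 CPM in ctrl. In FL1 in diestrus it was at 65.1, 23.5, 25.8, 28.8 and 31.6 CPM. The groups overlapped almost fully, with only FL1 replicate 1 above the ctrl range. The means were 35.8 ± 9.16 and 35.0 ± 17.1 CPM (SD, n = 5), with a log2FC of -0.04 (SE 0.26, edgeR adjusted p = 0.963). Without FL1 replicate 1 the log2FC was -0.39 (edgeR adjusted p = 0.317).

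**Figure D1:**
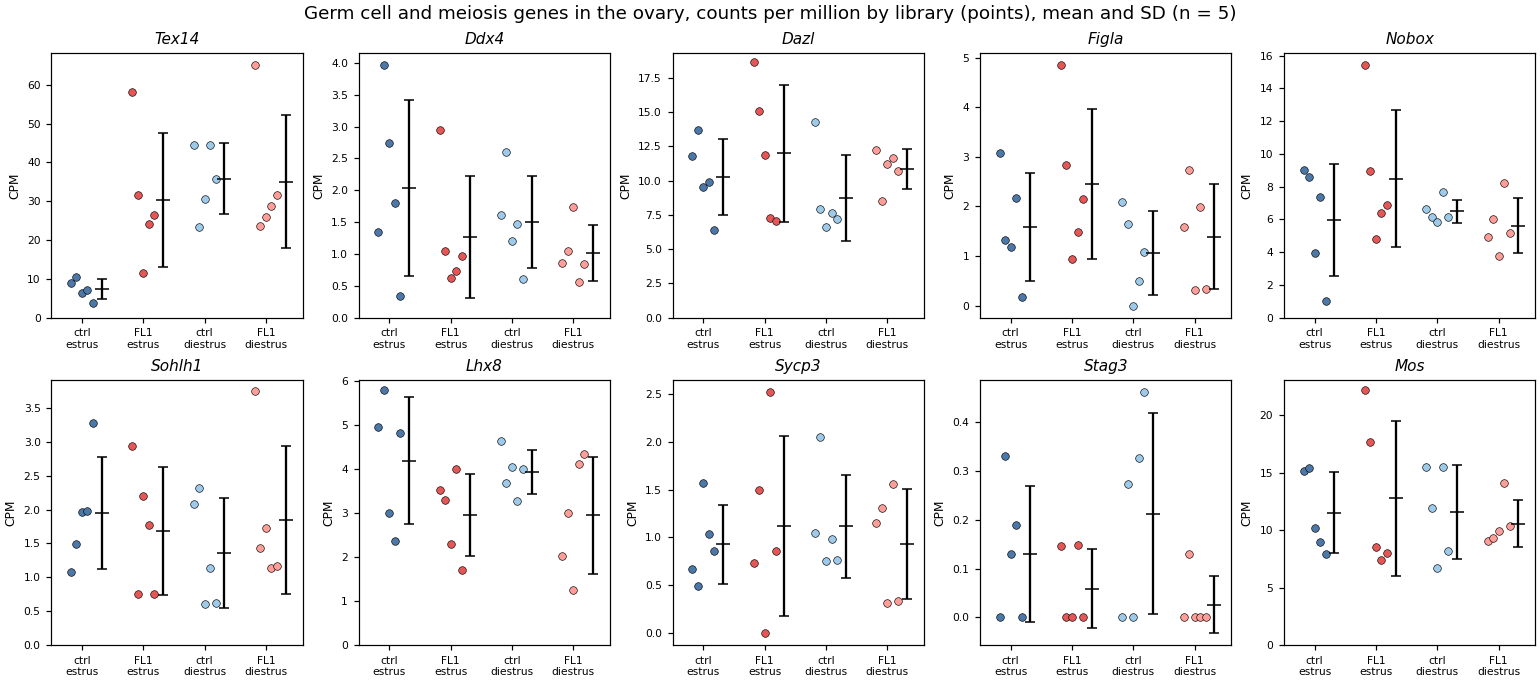
CPM of the 10 genes (y axis, a separate linear scale for each gene) in the 4 groups of line and stage (x axis); each point is 1 library and the black bar is the mean with its SD (n = 5). Tex14 in ctrl in estrus lies at 3.79 to 10.4 CPM, below all 15 libraries of the other groups, while the groups of the other 9 genes overlap.

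Between the stages, Tex14 changed in ctrl. Its level in estrus was 4.87-fold lower than in diestrus, with no overlap between the 5 libraries of each stage (log2FC of -2.29, SE 0.25, edgeR adjusted p = 0.000483). The exact permutation test on log2 CPM gave p = 0.00794, and 0.0159 after adjustment over the 4 comparisons. In FL1 the 2 stages overlapped, with a log2FC of -0.21 (SE 0.34, edgeR adjusted p = 0.724). Ordered by mean level, Tex14 went from ctrl in estrus to FL1 in estrus, FL1 in diestrus and ctrl in diestrus. Neighbours among the last 3 groups in this order did not differ beyond the spread between libraries. The line comparison in estrus and the stage comparison in ctrl use the same 5 ctrl libraries in estrus, so the low group is counted in both.

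Whether the line difference of Tex14 itself differed between estrus and diestrus was tested as an interaction over the 20 libraries. The difference was 2.07 on the log2 scale (SE 0.48), with an unadjusted p of 0.000259 in edgeR, and it did not pass adjustment over 14154 genes (edgeR adjusted p = 0.107). It passed with DESeq2 (adjusted p = 0.00619), with edgeR on genes with at least 1 count in total (adjusted p = 0.0160) and with edgeR without FL1 in estrus replicate 3 (adjusted p = 0.0321). Of all genes, 0.0565% were called in the edgeR interaction test.

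The other members gave no call in estrus. Of the 10 members, 7 passed the filter in this comparison, and 1 of these 7, Tex14, was called, against 2.33% of 13374 genes tested. Tex14 was also the only member whose groups did not overlap, which held for 4.85% of the genes tested. The other 6 tested members had log2FC of -0.50 to 0.57 with a median of 0.18, while the median of all genes tested was -0.01. None of the 6 had an unadjusted p under 0.05 in edgeR (0 genes, lowest p 0.163), against 15.9% of all genes tested. DESeq2 and limma-voom called 0 of them.

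Dazl stood at 11.8, 13.7, 9.54, 9.91 and 6.37 CPM in ctrl in estrus. In FL1 in estrus Dazl stood at 18.7, 15.1, 11.9, 7.25 and 7.07 CPM. Replicates 1 and 2 were the highest of FL1, and the other 3 lay within the range of ctrl. Its log2FC was 0.21 (SE 0.29, edgeR adjusted p = 0.779). Ddx4 was counted only 2 to 24 times per library and did not pass the filter. Its levels were 1.34, 3.97, 2.74, 1.79 and 0.344 CPM in ctrl in estrus and 2.94, 1.05, 0.629, 0.740 and 0.964 CPM in FL1 in estrus. Its mean was thus 2.04 ± 1.38 CPM in ctrl and 1.26 ± 0.952 CPM in FL1 (SD, n = 5), with overlapping groups, and edgeR on genes with at least 1 count in total gave a log2FC of -0.70 (SE 0.59, adjusted p = 0.561).

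Among the oocyte transcription factors, Nobox was at 8.98, 8.61, 3.92, 7.36 and 1.03 CPM in ctrl in estrus and at 15.4, 8.97, 4.82, 6.37 and 6.86 CPM in FL1 in estrus. One library at each end, ctrl replicate 5 and FL1 replicate 1, lay apart from the rest, and the log2FC of 0.49 (SE 0.44) did not pass the test (edgeR adjusted p = 0.654). Figla, a basic helix-loop-helix factor that drives zona pellucida genes, had a log2FC of 0.57 (SE 0.55, edgeR adjusted p = 0.686). It ran from 0.17 without FL1 replicate 1 to 0.93 without ctrl replicate 1. Sohlh1, another factor of this class, had a log2FC of -0.22 (SE 0.46). Lhx8, a LIM homeobox factor, had a log2FC of -0.50 (SE 0.34, edgeR adjusted p = 0.516), with 2.36 to 5.79 CPM in ctrl and 1.71 to 4.00 CPM in FL1. These 4 factors thus did not share a direction in their estimates, and none passed the test.

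Mos was at 15.2, 15.4, 10.2, 8.96 and 7.92 CPM in ctrl in estrus. In FL1 in estrus it was at 22.2, 17.6, 8.50, 7.40 and 8.03 CPM. As for Dazl, replicates 1 and 2 of FL1 were above the ctrl range and the others were not, and the log2FC was 0.14 (SE 0.32, edgeR adjusted p = 0.884). Sycp3, with 0 to 17 counts per library, had means of 0.927 ± 0.412 CPM in ctrl in estrus and 1.12 ± 0.944 CPM in FL1 in estrus (SD, n = 5) and did not pass the filter in any of the 4 comparisons of 2 groups. Stag3 was at 0 to 2 counts in all 10 libraries in estrus. With edgeR on genes with at least 1 count in total, Sycp3 had a log2FC of 0.23 (SE 0.73, adjusted p = 0.918).

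Single libraries were at the end of their group for several members. In FL1 in estrus, replicate 1 was the highest of its group for 7 of 9 members (all but Stag3 were ranked), namely Tex14, Ddx4, Dazl, Figla, Nobox, Sohlh1 and Mos. In ctrl in estrus, replicate 5 was the lowest for 6 of 9, namely Tex14, Ddx4, Dazl, Figla, Nobox and Mos, and the highest for Sohlh1. The summed level of the 12 oocyte markers ranged from 218 to 483 CPM in ctrl in estrus and from 318 to 760 CPM in FL1 in estrus. Without ctrl replicate 5 the log2FC of Tex14 in estrus was 1.89, and without FL1 replicate 1 it was 1.66, both called by edgeR (adjusted p = 0.0103 and 0.0155).

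**Figure D2:**
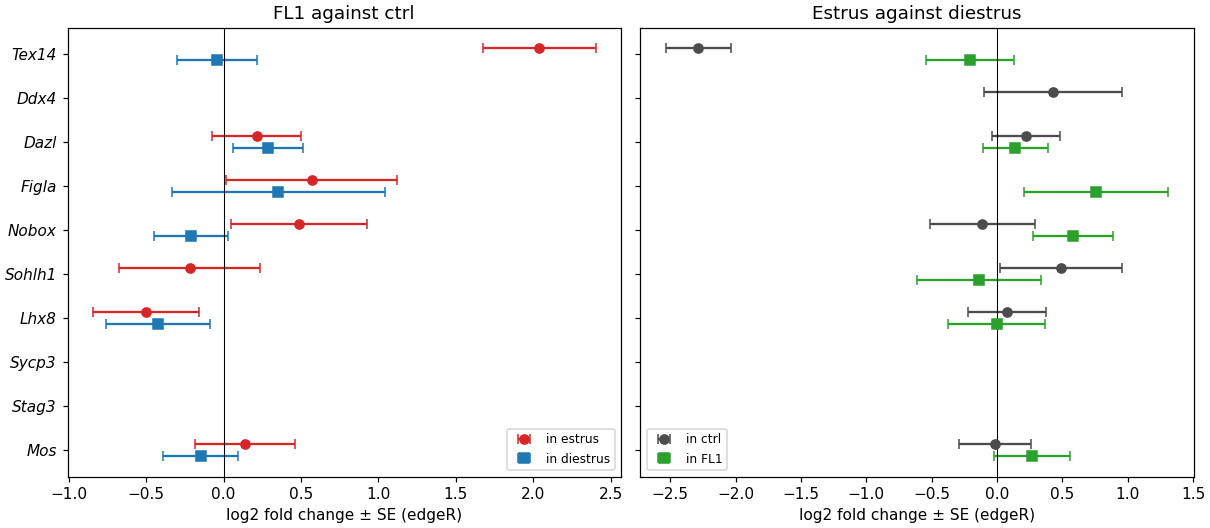
Log2 fold change with its SE from edgeR (x axis) for the members that passed the filter (y axis), for FL1 against ctrl in estrus and in diestrus (left) and for estrus against diestrus in ctrl and in FL1 (right). Tex14 lies at 2.04 and -2.29 in FL1 against ctrl in estrus and estrus against diestrus in ctrl, and the other members lie between -0.50 and 0.76 in the 4 comparisons.

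To set Tex14 against other members within each library, its count was divided by that of another member, which does not depend on library size. The log2 ratio of Tex14 to Ddx4 was 2.08 ± 0.84 in ctrl in estrus and 4.56 ± 0.35 in FL1 in estrus (SD, n = 5). The difference was 2.48 (exact permutation test, p = 0.00794), and all FL1 libraries were above all ctrl libraries. With the better counted Dazl as the reference the difference was 1.77 and with Mos it was 1.89, each with an exact permutation p of 0.00794. With Nobox it was 1.22 (exact permutation test, p = 0.0159), and the groups overlapped, with ctrl replicate 5 at 1.79 and FL1 replicate 3 at 1.26. Tex14 in FL1 in estrus was thus higher on average per count of each of these 4 members than in ctrl. The numerator is the same in all 4 ratios, and these p-values are unadjusted. Tex14 was already known to differ and the 4 references gave no call, so the ratios restate that difference and do not test it anew.

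In diestrus the log2 ratio of Tex14 to Ddx4 was 4.60 ± 0.92 in ctrl and 4.99 ± 0.90 in FL1 (SD, n = 5), a difference of 0.39 (exact permutation test, p = 0.524). The difference was -0.46 with Dazl, 0.15 with Nobox and -0.02 with Mos, with exact permutation p-values of 0.143, 0.706 and 0.937. The sign thus turned with the reference gene, and no ratio passed the test in diestrus.

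**Figure D3:**
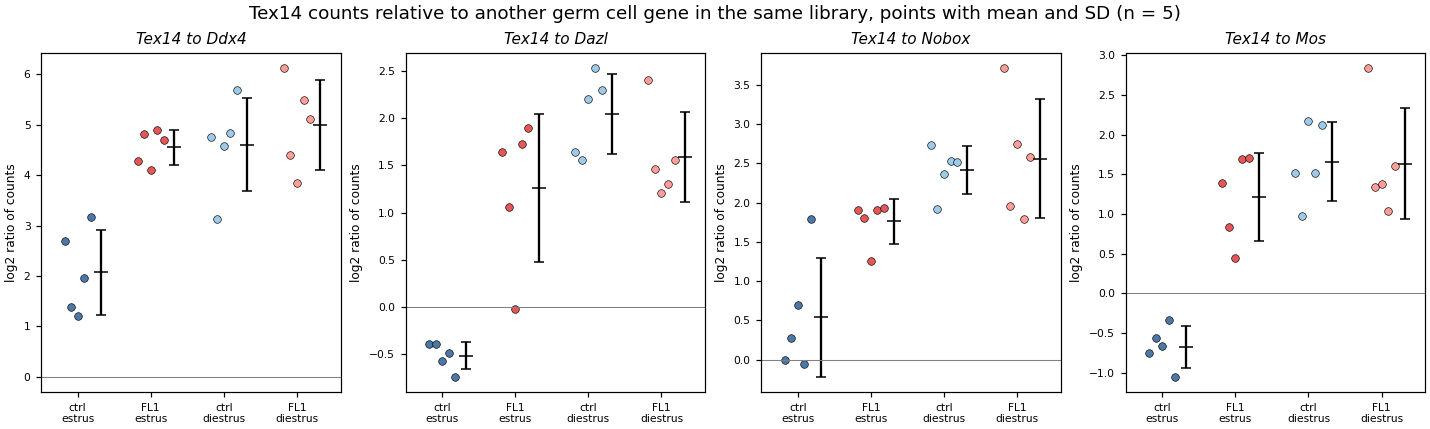
Log2 ratio of the Tex14 count to the count of Ddx4, Dazl, Nobox or Mos in the same library (y axis, 0.5 added to each count) in the 4 groups (x axis); points are libraries, and bars are the mean with its SD (n = 5). The mean of ctrl in estrus is the lowest of the 4 groups in each panel, at 2.08, -0.52, 0.54 and -0.67.

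In diestrus no member was called, against 4.11% of 13259 genes tested, and no member's groups lay without overlap, against 5.4% of the genes tested. Of the 10 members, 6 passed the filter. The 5 tested members other than Tex14 had log2FC of -0.42 to 0.35. They had 0 unadjusted p-values under 0.05 in edgeR, against 17.7% of all genes tested, and 0 calls by DESeq2 and limma-voom. Dazl had the lowest unadjusted p, 0.221, with a log2FC of 0.29 (SE 0.22). It stood at 14.3, 7.93, 6.60, 7.68 and 7.22 CPM in ctrl and at 12.2, 8.49, 11.2, 11.6 and 10.7 CPM in FL1. Apart from ctrl replicate 1, each FL1 library was above each ctrl library, and ctrl replicate 1 was the highest of all 10. Nobox was at 6.63, 6.16, 5.85, 7.68 and 6.15 CPM in ctrl in diestrus and at 4.90, 6.01, 3.78, 8.23 and 5.19 CPM in FL1, a log2FC of -0.21 (SE 0.24). The ctrl libraries lay close together and within the FL1 range. Mos ranged from 6.75 to 15.5 CPM in ctrl and from 9.08 to 14.1 CPM in FL1, with a log2FC of -0.15 (SE 0.24), and Lhx8 from 3.27 to 4.64 CPM and from 1.26 to 4.35 CPM, with a log2FC of -0.42 (SE 0.33). Ddx4 and Sohlh1 did not pass the filter here. Their means were 1.5 ± 0.724 and 1.35 ± 0.812 CPM in ctrl and 1.01 ± 0.439 and 1.84 ± 1.09 CPM in FL1 (SD, n = 5), with overlapping groups. Figla, with 0 to 22 counts in diestrus, had a log2FC of 0.35 (SE 0.69).

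Between the stages in ctrl, 7 members were tested and Tex14 was called, against 2.85% of 13334 genes tested. It was also the only member without overlap, against 4.56% of the genes tested. The other 6 tested members had log2FC of -0.11 to 0.49 in estrus against diestrus. Ddx4, which passed the filter here, had a log2FC of 0.42 (SE 0.53), Dazl of 0.22 (SE 0.26), Nobox of -0.11 (SE 0.40), Sohlh1 of 0.49 (SE 0.47), Lhx8 of 0.07 (SE 0.30) and Mos of -0.01 (SE 0.27). None of these 6 had an unadjusted p under 0.05 in edgeR, against 15.4% of all genes tested. DESeq2 and limma-voom called 0 of them.

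In FL1 none of the 7 tested members was called between the stages, against 15.9% of 13350 genes tested, and none was without overlap, against 12.1% of the genes tested. Their log2FC in estrus against diestrus, Tex14 apart, ran from -0.14 for Sohlh1 to 0.76 for Figla. Nobox had the lowest unadjusted p, 0.0774, with a log2FC of 0.58 (SE 0.31, edgeR adjusted p = 0.219) and means of 8.49 ± 4.16 CPM in estrus and 5.62 ± 1.66 CPM in diestrus (SD, n = 5). The member genes other than Tex14 had 0 unadjusted p-values under 0.05 in edgeR here as well, against 30.1% of all genes tested. DESeq2 and limma-voom called 0 of them.

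The members were also correlated with Ddx4 and with Dazl within each line, over 10 libraries, as Pearson's r and Spearman's rho of log2 CPM. Of the 36 relations none passed after Benjamini-Hochberg adjustment over 72 coefficients (permutation tests with 100000 resamples). The pair of Ddx4 and Dazl enters from both sides in each line, so it is counted again among the 36. The closest was Dazl with Mos in FL1 (r = 0.849, permutation p = 0.00155, adjusted p = 0.112, and rho = 0.685, permutation p = 0.0343, adjusted p = 0.320), with r = 0.724 without the 2 libraries farthest from the median of Dazl. Tex14 with Ddx4 in FL1 had r = 0.488 (permutation p = 0.162, adjusted p = 0.554) and rho = 0.273 (permutation p = 0.448, adjusted p = 0.783), and r = 0.340 without the 2 farthest libraries. In ctrl the Tex14 levels form 2 clusters by stage of 5 libraries each, so no r pooled over the stages is given for its relations there, which count among the 36. Both stages enter each relation, so a difference between stages is part of r.

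The genes most like Tex14 in their profile over the 20 libraries were not members. By Pearson's r of log2 CPM among 14154 genes, they were Atg12 (r = 0.923), a ubiquitin-like protein of autophagy, Akr1c14 (0.909), an aldo-keto reductase of steroid metabolism, Rgs13 (0.908), a regulator of G protein signalling, Asb4 (0.899) and Adamts5 (0.899), a secreted protease that cleaves proteoglycans. Nobox was the most similar member, at rank 904 with r = 0.504, and Ddx4 was at rank 7651 with r = -0.01. These values are a description over libraries that share their groups, and the 5 genes were picked for their likeness.

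The 5 genes shared with Tex14 a low level in ctrl in estrus. Akr1c14 was at 61.5 ± 23.9 CPM in ctrl and 141 ± 39.2 CPM in FL1 in estrus, and at 142 ± 20.1 and 154 ± 34.2 CPM in diestrus (SD, n = 5). Rgs13 was at 0.496 ± 0.422 CPM in ctrl in estrus and at 4.47 ± 2.32, 7.41 ± 4.02 and 6.79 ± 4.44 CPM in the groups FL1 estrus, ctrl diestrus and FL1 diestrus (SD, n = 5). Of the 5, Akr1c14 and Asb4 were called by edgeR between the lines in estrus, with log2FC of 1.19 and 1.10. Rgs13 did not pass the filter in that comparison and was not tested there. Of all genes tested there, 2.33% were called. The 5 genes were picked for likeness to Tex14, itself called there, so these calls follow from the choice. The study also listed Asb4 as a changed gene in estrus from these same libraries. The genes most like Ddx4, which has few counts, were Rgs19, Thyn1, Nlrp9c, Zfp957 and Unc5c, with r of 0.772 to 0.747, and Tex14 was at rank 7437.

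**Figure D4:**
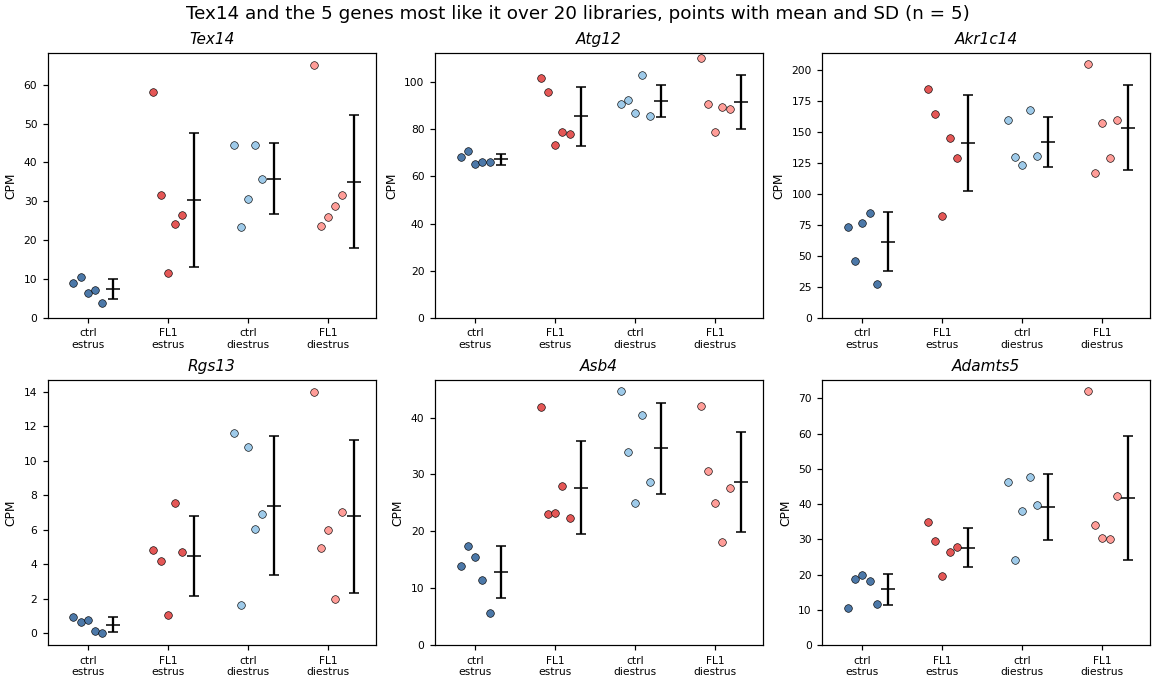
CPM (y axis, linear, from 0) of Tex14 and the 5 genes with the highest correlation with it over 20 libraries, in the 4 groups (x axis); points are libraries and bars the mean with its SD (n = 5). In each panel the mean of ctrl in estrus is the lowest of the 4 groups, at 7.34 CPM for Tex14 and 0.496 CPM for Rgs13.

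Markers of other ovarian cells were set beside these values. The summed 7 luteal markers ranged from 11540 to 32030 CPM in ctrl in estrus, 14650 to 29190 CPM in FL1 in estrus, 25180 to 45340 CPM in ctrl in diestrus and 27610 to 37430 CPM in FL1 in diestrus. The summed 8 granulosa markers ranged from 1261 to 3195 CPM in ctrl in estrus, 2379 to 3715 CPM in FL1 in estrus, 2551 to 3988 CPM in ctrl in diestrus and 2588 to 3936 CPM in FL1 in diestrus. The summed 4 theca markers ranged from 3689 to 10840 CPM in ctrl in estrus, 4701 to 8859 CPM in FL1 in estrus, 8587 to 11530 CPM in ctrl in diestrus and 11100 to 13830 CPM in FL1 in diestrus. Within the theca list, Cyp11a1 had 1265361 counts over all libraries, Cyp17a1 25170, Hsd3b6 81 and Insl3 7, so the theca sum mainly follows Cyp11a1. In estrus against diestrus, Cyp17a1 had a log2FC of -5.02 in ctrl and -3.83 in FL1. Cyp11a1 had -0.57 and -0.79. None of these markers was at 0 in all libraries, but Insl3 and the granulosa marker Amh had only 7 and 17 counts.

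Between the lines in estrus, where Tex14 was called, edgeR called 0 of 38 marker genes tested, against 2.33% of all genes tested. Of the 38, 4 had an unadjusted p under 0.05, against 15.9% of all genes tested. None of the 4 was an oocyte marker. Between the stages in ctrl, 1 marker rose and 3 fell in estrus, 1 each of the luteal, granulosa and theca lists among the latter. Of all genes tested there, 2.85% were called in either direction. An unadjusted p under 0.05 was found for 15 of 38 markers, against 15.4% of all genes tested. Among the 15 were 5 of 7 luteal and 4 of 5 blood markers and 0 of 12 oocyte markers. Between the stages in FL1, where Tex14 was not called, 15 of 40 marker genes fell in estrus, 6 of 7 luteal markers among them, and 1 rose. Of all genes tested there, 15.9% were called in either direction. The part of these cell types in the Tex14 values was not tested.

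The promoter of Tex14 is printed with those of Dazl and Nobox, 2 well counted members that were not called. The windows run from 250 bases before to 50 bases after the RefSeq start of the gene (GRCm38.p6), read 5′ to 3′ on the strand of the gene, and capitals mark each match to the E-box CANNTG, the class of motif that basic helix-loop-helix factors such as FIGLA and SOHLH1 bind. The window of Tex14 is chr11:87404815-87405114 on the forward strand, that of Dazl chr17:50293571-50293870 and that of Nobox chr6:43309505-43309804, both on the reverse strand.
Tex14: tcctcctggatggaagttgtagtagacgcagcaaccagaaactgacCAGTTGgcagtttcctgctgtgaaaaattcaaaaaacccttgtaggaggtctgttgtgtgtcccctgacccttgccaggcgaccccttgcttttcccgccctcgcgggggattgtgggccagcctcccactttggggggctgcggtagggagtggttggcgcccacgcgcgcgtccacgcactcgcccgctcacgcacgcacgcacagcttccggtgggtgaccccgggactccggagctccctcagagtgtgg
Dazl: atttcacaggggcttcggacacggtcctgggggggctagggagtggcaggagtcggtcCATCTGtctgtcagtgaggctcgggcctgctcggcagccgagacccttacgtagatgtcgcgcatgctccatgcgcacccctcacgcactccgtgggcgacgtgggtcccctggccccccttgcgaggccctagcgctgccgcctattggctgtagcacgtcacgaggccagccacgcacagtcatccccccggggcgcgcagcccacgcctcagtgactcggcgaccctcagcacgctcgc
Nobox: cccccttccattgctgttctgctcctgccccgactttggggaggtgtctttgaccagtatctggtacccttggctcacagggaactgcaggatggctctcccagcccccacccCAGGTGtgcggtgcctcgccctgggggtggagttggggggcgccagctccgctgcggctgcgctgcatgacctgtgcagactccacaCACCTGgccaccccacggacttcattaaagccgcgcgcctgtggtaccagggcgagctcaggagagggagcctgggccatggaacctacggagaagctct

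Of the 10 members, 9 had such a window, all but Mos, and 8 of these 9 held at least 1 E-box, against 72.3% of 32817 RefSeq windows of the same length. Tex14 and Dazl each had 1 match, Nobox 2, Figla 4 and Sohlh1 5, and Lhx8 had none. The NOBOX elements TAATTA and TAATTG, searched on both strands, were in 0 of the 9 windows, against 12.4% of all windows. The Tex14 window had 20 CpG and 62.3% GC. A match is a description of letters and not a site in use.

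Tex14 starts 110 bases from the start of Rad51c, a recombination gene on the opposite strand, so that the window printed above covers the starts of both. Rad51c, named for this position after its values were seen, was at 5.81 ± 0.966 CPM in ctrl and 5.20 ± 1.15 CPM in FL1 in estrus (SD, n = 5), with a log2FC of -0.16 (SE 0.24, edgeR adjusted p = 0.799). Of the 10 tested genes on either side of Tex14, from -636 to 799 kb from its start, none was called between the lines in estrus. The share called among all genes tested was 2.33%. An unadjusted p under 0.05 in edgeR was found for 5 of the 20, against 15.9% of all genes tested. The log2FC of the 20 ran from -0.49 to 0.59. Between the stages in ctrl, 0 of the 20 were called and 0 had an unadjusted p under 0.05 in edgeR. The shares among all genes tested were 2.85% and 15.4%. In diestrus Dynll2, a dynein light chain gene 575 kb after the start of Tex14, rose in FL1 with a log2FC of 0.37 (SE 0.09, edgeR adjusted p = 0.0314). It was 1 of 20 neighbours called there, against 4.11% of all genes tested. Between the stages in FL1, 2 of the 20 were called, both lower in estrus, against 15.9% of all genes tested. They were Dynll2 with a log2FC of -0.48 and Trim37, a ubiquitin ligase gene named after its values were seen, with a log2FC of -0.51.

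Beside the members, 66 further genes of 7 lists around germ cell and meiosis functions were matched, of which 34 to 38 were tested per comparison. In estrus 1 of 34 fell in FL1 and none rose, against 2.33% of all genes tested, and the median log2FC of the 34 was -0.06. The called gene was Rbm46, an RNA-binding protein needed for germ cells to go through meiosis. Rbm46 was at 15.6, 18.2, 19.2, 17.9 and 15.0 CPM in ctrl in estrus. In FL1 in estrus it was at 4.12, 3.14, 2.10, 4.59 and 4.07 CPM. All FL1 libraries were far below all ctrl libraries, a 4.81-fold difference (log2FC of -2.26, SE 0.22, edgeR adjusted p = 4.65e-05). The direction was thus opposite to that of Tex14 in the same libraries.

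Rbm46 also rose in estrus against diestrus in ctrl, where it was 1 of 36 tested list genes called, against 2.85% of all genes tested, with a log2FC of 0.92 (SE 0.18, edgeR adjusted p = 0.0177). The call held in 8 of 10 fits that left out a library, and the log2FC ran from 0.82 to 1.01. It was lost near the threshold without ctrl in estrus replicate 4 (edgeR adjusted p = 0.0508) and without ctrl in diestrus replicate 4 (edgeR adjusted p = 0.0547). In diestrus its means were 9.06 ± 2.06 CPM in ctrl and 4.75 ± 2.28 CPM in FL1 (SD, n = 5), a log2FC of -0.93 that did not pass the test (SE 0.32, edgeR adjusted p = 0.129). The called list gene in diestrus, 1 of 36 against 4.11% of all genes tested, was Psmc3ip, a partner of meiotic strand exchange in recombination. It was at 7.38, 16.3, 17.7, 16.8 and 19.4 CPM in ctrl in diestrus and at 7.64, 5.09, 4.57, 4.54 and 7.53 CPM in FL1. One ctrl library, replicate 1, lay within the FL1 range and the other 4 lay above it, with a log2FC of -1.40 (SE 0.27, edgeR adjusted p = 0.00827). The study listed Psmc3ip as a changed gene in diestrus from these same libraries, so this call is not independent evidence.

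In FL1, 2 of 34 list genes fell in estrus against diestrus and none rose, against 15.9% of all genes tested. They were, both from the list of MOS and MAPK genes, Mapk3, the kinase ERK1, with a log2FC of -0.42 (SE 0.10, edgeR adjusted p = 0.00889), and Cnot6l, a deadenylase that removes maternal mRNA in maturing oocytes, with a log2FC of -0.34 (SE 0.08, edgeR adjusted p = 0.00716). Both are expressed in many cell types. In the interaction test 0 of 38 list genes were called in edgeR, against 0.0565% of all genes tested. An unadjusted p under 0.05 in edgeR was found for 3 of the 38, against 11.7% of all genes tested. DESeq2 and limma-voom called 0 of the list genes there. The other genes of the intercellular bridge list, to which Tex14 belongs by function, were Kif23, Cep55, Rbm44, Racgap1, Anln and Ect2. Of these, 5 were tested and 0 called by edgeR in each of the 5 comparisons. The shares called among all genes tested ran from 0.0565% to 15.9%, so 0 of 5 does not set this list apart from other genes.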

How the data were processed

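The ovaries of 20 mice, 5 per line and stage, gave 1 library each. The authors prepared QuantSeq 3' mRNA-Seq forward libraries and aligned the trimmed reads with STAR to GRCm38. Per the labels, Cuffdiff was also named in the submitters' processing notes, without a role. The authors deposited raw counts per Ensembl gene, without normalization or pooling. The counter, its strand setting and any molecular identifiers are not given in the sources used here. Line and stage came from the titles and characteristics. The source name was left aside, since it gives FL1 for each library, also those of ctrl.

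Everything else was computed from these counts. Symbols and positions came from GENCODE M21, and promoter windows from RefSeq (GRCm38.p6). Differential expression was tested with the quasi-likelihood method of edgeR 4.0.16 in R 4.3.3, with TMM normalization, filterByExpr with a minimum count of 10 and an adjusted p (Benjamini-Hochberg over all genes tested) of at most 0.05 as the threshold for a call. The lines were compared within a stage, the stages within a line, each on 10 libraries, and the interaction on 20. Single values were compared by exact permutation over all 252 assignments, two-sided, on log2 CPM (prior count 2) or on log2 ratios of counts with 0.5 added. Alternatives were RLE size factors, DESeq2 1.42.0, limma-voom (limma 3.58.1), other filters, the replicate number as a block, fits with a library left out, and 1 fit over all libraries. The test was also tried on simulated counts. Python 3.11.15 was used for the remaining steps.

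Depth was 5991223 to 10352718 counts per library. Floors and p-values cover counting error and the spread between these animals only. The 10 members, the 7 gene lists and the 8 marker lists were chosen with earlier results of these data known. The rule for named genes took the members, called list genes, neighbours of Tex14 called between the lines, and the 5 genes most like Tex14 and Ddx4. Rad51c, Trim37, the uncalled bridge genes and the genes most like Nobox and Dazl were named beyond it, after their values were seen. So were the marker genes Cyp11a1, Cyp17a1, Hsd3b6, Insl3 and Amh. Of 67 list genes 66 were matched by symbol. Replicate numbers are an order within a group of different animals: the deviations of same-numbered libraries correlated at -0.0953 to 0.125 over 20 pairs. The numbers were not used as pairs in the main tests. Only the replicate block alternative used them so, and it joins different animals.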

Additional observations from a re-analysis of the deposited data

Results flagged for a closer look

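In 6 of 40 sets of 5 libraries (10 members in 4 groups), 1 library stood far from the other 4 of its group. For normally distributed values such a screen marks about 1 in 20 sets by chance, and here it was run on linear CPM. The sets of Stag3, with at most 3 counts in a library, could not be marked. In FL1 in diestrus, replicate 1 was far above the others for Tex14 at 65.1 CPM and for Sohlh1 at 3.75 CPM, and replicate 4 for Mos at 14.1 CPM. In ctrl in diestrus, replicate 1 was far above the others for Dazl at 14.3 CPM and replicate 2 for Sycp3 at 2.05 CPM. In FL1 in estrus, replicate 1 was far above the others for Ddx4 at 2.94 CPM. All 6 were the highest library of their group, and the counts of Ddx4, Sohlh1 and Sycp3 are low.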

How the results depend on the processing

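The calls of Tex14 in FL1 against ctrl in estrus and in estrus against diestrus in ctrl held under the 7 alternatives of tool, scaling, filter, block and samples fitted, with log2FC of 1.71 to 2.05 and -2.30 to -2.12, and with a library left out, with 1.66 to 2.25 and -2.43 to -2.14. In the interaction test the number of members called was 1 with DESeq2, with at least 1 count in total and with the replicate block, in place of 0, and 0 to 1 when a library was left out. That member was Tex14, at 2.08, 2.07 and 2.05 on the log2 scale, with an adjusted p of 0.0425 with the replicate block. Its adjusted p ranged from 0.00619 to 0.133 over 6 alternatives and from 0.0321 to 0.188 with a library left out. With the replicate block, where signs are flipped within 5 numbers and p cannot go below 0.0625, the log2 ratio of Tex14 to Ddx4 in estrus was 2.48 with an exact p of 0.0625, and Rbm46 in estrus against diestrus in ctrl was at 0.94 with an adjusted p of 0.0540 in edgeR. In diestrus that ratio was -0.46 with Dazl and -0.024 with Mos as the reference, the latter chosen after seeing the data. The number of pathway list genes called in diestrus was 2 with DESeq2 and with at least 1 count in total, and 1 to 2 with a library left out. In estrus against diestrus in ctrl it was 3 with DESeq2, 2 with limma-voom, 3 with 1 fit of all libraries, and 0 to 2 with a library left out: 0 without replicate 4 of either stage and 2 without replicate 1 or 5 in estrus. In estrus against diestrus in FL1 it was 6 with at least 1 count in total and 2 to 6 with a library left out, the 6 without FL1 in estrus replicate 3. The interaction call of a member with a library left out came without the same library. The cause was not tested.

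Estimates of members that were not called also changed sign. With limma-voom, Dazl was at -0.083 and Mos at -0.17 in FL1 against ctrl in estrus. In estrus against diestrus in ctrl, limma-voom gave -0.083 for Lhx8 and 0.039 for Mos, and the replicate block gave 0.013 for Mos. In estrus against diestrus in FL1, limma-voom gave -0.10 for Dazl, 0.11 for Lhx8 and -0.022 for Mos, and the replicate block gave 0.059 for Lhx8. With a library left out, FL1 against ctrl in estrus ran from -0.0041 to 0.36 for Dazl, -0.50 to 0.037 for Sohlh1 and -0.16 to 0.28 for Mos, and, without a change of sign, 0.17 to 0.93 for Figla and 0.15 to 0.67 for Nobox. In diestrus it ran from -0.39 to 0.073 for Tex14 and -0.044 to 0.78 for Figla. Estrus against diestrus ran in ctrl from -0.30 to 0.14 for Nobox, -0.067 to 0.23 for Lhx8 and -0.16 to 0.12 for Mos. In FL1 it ran from -0.58 to 0.14 for Tex14, -0.070 to 0.29 for Dazl, -0.41 to 0.29 for Sohlh1, -0.19 to 0.17 for Lhx8 and -0.026 to 0.41 for Mos. None of these changes gave a call. Depth limits Ddx4, Figla, Sohlh1 and Sycp3, which had 33 counts or fewer in each library, and Stag3, which had 3 or fewer.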

Other observations

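The genes most like Nobox and Dazl over the 20 libraries were ranked as well, a choice made after seeing the data. For Nobox the first 5 were Rgs17 (r = 0.881), Dpy30 (r = 0.879), Ccnb1 (r = 0.876), a cyclin, Izumo1r (r = 0.873), the egg receptor for sperm, and Bub1 (r = 0.856), a checkpoint kinase. Of the members, Figla was at rank 424 for Nobox (r = 0.643), Mos at rank 627 (r = 0.607), Dazl at rank 1177 (r = 0.518), Tex14 at rank 1284 (r = 0.504) and Ddx4 at rank 1620 (r = 0.459), and Sycp3, Lhx8 and Sohlh1 had r of 0.118, 0.099 and -0.321. For Dazl the first 5 were Gys1, Wdr4, Edc4, Rabl2 and Ezh2, with r of 0.778 to 0.770. Mos was at rank 8 of 14154 genes (r = 0.753), Figla at rank 371 (r = 0.541), Nobox at rank 468 (r = 0.518), Ddx4 at rank 1310 (r = 0.405), Sohlh1 at rank 2894 (r = 0.270), Tex14 at rank 3359 (r = 0.239), Lhx8 at rank 7166 (r = 0.020) and Sycp3 at rank 11283 (r = -0.234). These are descriptions over 20 libraries that share their groups, with no test.

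Of the 9 ranked members, ctrl in diestrus replicate 3 was the lowest of its group for 6, namely Dazl, Figla, Nobox, Sohlh1, Sycp3 and Mos. FL1 in estrus replicate 3 was the lowest of its group for 5, namely Tex14, Ddx4, Figla, Nobox and Sycp3.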
